A study of Mus musculus with 6 samples.

Results

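The genes described here are those of glycosylphosphatidylinositol (GPI) anchor synthesis, in RNA-seq libraries of mouse calvarial osteoblasts with and without the kinase gene Mark3. They were chosen by symbol: protein-coding genes of the GENCODE M21 annotation named Pig or Pgap with 1 further letter or digit, without the immunoglobulin receptor Pigr, together with Gpaa1, Dpm1, Dpm2, Dpm3, Mpdu1 and Gpld1. The rule took 29 of the 51912 genes in the count table, and 28 of the 29 had enough counts to be tested. No measured value enters the rule, but the family was put forward with results of this same comparison known, so its differences are given as a description and support nothing about the family as a group.

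A GPI anchor is a glycolipid, built in the endoplasmic reticulum, that holds many proteins on the outer face of the plasma membrane. Enzymes add N-acetylglucosamine, mannoses and ethanolamine phosphates to phosphatidylinositol in turn, a transamidase then swaps the finished anchor for the C-terminal signal of a protein, and further enzymes trim and remodel the lipid. In osteoblasts the best known cargo is tissue-nonspecific alkaline phosphatase, encoded by Alpl, the ectoenzyme that frees phosphate for mineral.

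Cells were taken from skull caps of C57BL/6J pups aged 1 d, and all cultures carried floxed Mark3 alleles (Mark3 flox/flox) and received an adenovirus. The WT group (3 libraries) was given GFP adenovirus and the Mark3-KO group (3 libraries) CRE adenovirus, each for 24 h, so genotype and virus changed together and their parts cannot be told apart. The labels do not state separate cultures for the libraries of a group, so p-values cover no more than library-to-library spread, part of which may be technical.

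Libraries held 56925883 to 71445243 counts. Mark3 itself had 113, 118 and 118 CPM (counts scaled to 1000000 per library, with TMM scaling between libraries) in WT, against 47.6, 52.4 and 44.1 CPM in Mark3-KO, for a log2 difference of -1.27 (SE 0.10, adjusted p 0.0153), so that 41.4% of the WT level remained. It no longer passed without WT replicate 2, Mark3-KO replicate 2 or Mark3-KO replicate 3 (adjusted p 0.128, 0.0798 and 0.0681). Of 10 osteoblast markers, 7 had a mean over the 6 libraries above 1 CPM, with summed levels of 18700 to 39100 CPM in WT against 13200 to 15000 CPM in Mark3-KO. Nearly all of that sum is Col1a1 (means 13900 and 4170 CPM) and Col1a2 (13500 and 8110 CPM), while Spp1 was higher in Mark3-KO without overlap (1180 and 1490 CPM) and Runx2, Sp7 and Ibsp overlapped. With a correction for GC content, described below, the log2 fold changes were -0.54 for Col1a1, -0.96 for Col1a2 and 0.01 for Spp1. The late markers Bglap (0.703 and 0.211 CPM, lower in Mark3-KO without overlap) and Dmp1 (0.344 and 0.175 CPM, overlapping) were low in both groups. Of the 7 macrophage and osteoclast markers all 7 were above 1 CPM, summing to 205 to 232 CPM in WT against 211 to 225 CPM in Mark3-KO, most of it Ctsk (182 and 184 CPM). Without overlap, Ptprc and Adgre1 were at 159% and 144% of WT and Csf1r and Cd68 at 70.2% and 77.1%. With GC correction their log2 fold changes were, in that order, 0.08, 0.38, 0.07 and 0.11. The 5 chondrocyte markers summed to 668 to 1730 CPM against 351 to 583 CPM. That sum was carried by Col2a1 (980.0 and 343 CPM, log2 fold change -0.05 with GC correction). Col9a1 was also lower without overlap (24.5 and 12.5 CPM, log2 fold change -0.98, or -0.68 with GC correction). Sox9 overlapped, at -0.49 without and with the correction, and so did Acan, at -0.15 and, corrected, 0.49. The 5 skeletal muscle markers summed to 7.35 to 14 CPM against 1.94 to 5.16 CPM. Acta1 was lower without overlap (5.02 and 0.924 CPM), at -2.43 and, with GC correction, -1.35 (adjusted p 0.0759). So was Myh3 (4.59 and 1.72 CPM), at -1.42 and, corrected, -0.92 (adjusted p 0.11). Des and Myog overlapped, and Ckm had too few counts to test. Endothelial markers summed to 4.17 to 4.59 CPM in all libraries, and adipocyte and red cell markers to under 1 CPM. Among the endothelial markers Pecam1, though low, was higher in Mark3-KO without overlap (0.19 and 0.463 CPM), and the others overlapped. Its log2 fold change was 1.29, or 1.33 with GC correction (adjusted p 0.0971). The part of these cells in the results below was not tested, and in such bulk samples fewer cells of a type and less RNA per cell cannot be told apart.

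The GPI anchor genes split into members with higher and members with lower counts in Mark3-KO. Of the 28 tested members, 12 were higher and 11 lower in every Mark3-KO library than in every WT library, and the groups overlapped for Pigg, Pigo, Pigu, Gpld1 and Pgap2. The same held in the higher direction for 25.8% and in the lower direction for 27.5% of all 19017 tested genes. Only Pigq passed edgeR's quasi-likelihood test at a Benjamini-Hochberg adjusted p under 0.05, and it fell. Dpm1, Pigs, Gpaa1, Pigp, Dpm3, Pgap1 and Pigt lay just above the threshold, all with an adjusted p of 0.0506 by that test. Their unadjusted p went from 0.00362 (Dpm1) to 0.00796 (Pigt). Over all genes 0.168% fell and 0.0473% rose by that test (32 and 9 genes). Without adjustment, 20 members (10 in each direction) had p under 0.05, against 8684 of the 19017 genes (45.7%). The median log2 fold change of the members was 0.06, beside 0.02 for all genes, with 14 fitted above 0 and 14 below. Without a filter on low counts, where all 29 enter, the median was -0.08. DESeq2's Wald test called 10 members lower and 9 higher, beside 21.8% and 14.5% of all genes.

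**Figure D1:**
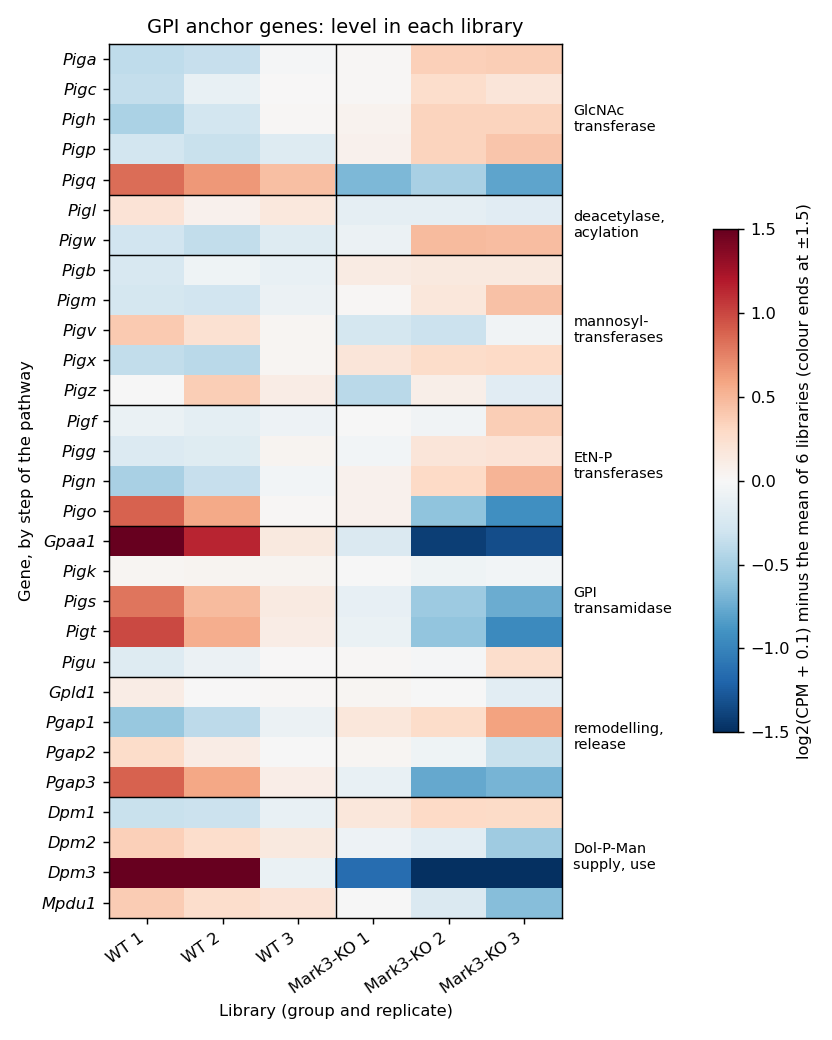
Level of each of the 29 GPI anchor genes (rows, grouped by step of the pathway) in each of the 6 libraries (columns). Colour is log2(CPM + 0.1) minus the gene's mean over the 6 libraries, with colours ending at ±1.5. Gpaa1 and Dpm3 have the widest range, and both also differ between libraries of a group.

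The direction of a member went with the base composition of its transcripts. All 11 tested members with a transcript GC content of 54.0 to 59.3% were fitted below 0, with a median log2 fold change of -0.97. Of the 17 members at 40.0 to 49.9%, 14 were fitted above 0 and 3 below, with a median of 0.43. Across the 28 members, Pearson's r between GC content and log2 fold change was -0.70 and Spearman's rho -0.91. Without Dpm3 they were -0.92 and -0.92 (27 members). Over 18965 tested genes with a GC value they were -0.74 and -0.81, and the median log2 fold change went from 0.63 in the tenth of genes lowest in GC to -1.33 in the tenth highest in GC. These relations are across genes measured in the same 6 libraries, and genes are not independent replicates. The split at 50% GC was chosen after the values were seen.

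**Figure D2:**
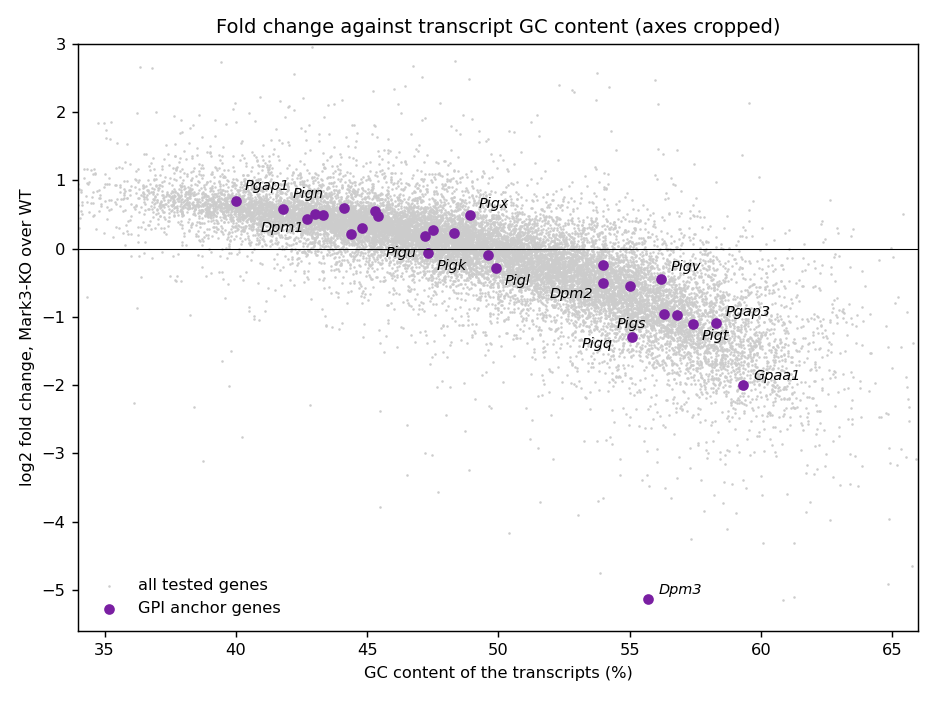
Log2 fold change of Mark3-KO over WT (vertical axis) against the GC content of a gene's transcripts in percent (horizontal axis), with tested genes as grey dots and the 28 tested GPI anchor genes as purple dots, 15 of them named. Axes are cropped and leave out 79 tested genes. The members run along the cloud of all genes, and Dpm3 lies below it.

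Libraries of the same group also differed along GC content. In WT replicate 1 all 11 GC-rich members had more CPM than in WT replicate 3, by a median log2 ratio of 0.67, and 15 of the 17 others had less, by a median of -0.20. In Mark3-KO replicate 1 against Mark3-KO replicate 3 the medians were 0.63 and -0.25, with 9 of the GC-rich members above 0, 1 below and Dpm3 without a ratio. The WT pair was picked after the values were seen. For the tenth of all genes highest in GC, the median log2 level relative to the mean library was 1.15, 0.72 and 0.11 in WT, against -0.21, -0.71 and -1.0 in Mark3-KO. The 2 groups therefore do not overlap in this measure, and what gave rise to it was not tested.

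A fit that takes out, library by library, a smooth curve of each gene's ratio on GC content was run beside the first. It removes any difference that follows GC content, whatever its origin. With it no member passed in either direction, beside 0.301% of all genes lower and 0.105% higher, and 8 members had an unadjusted p under 0.05, beside 25.1% of all genes. The members' median was 0.04, and 22 of the 28 lay within 0.25 of 0 on the log2 scale, where 6 had without the correction. Of all genes 56.8% did with it and 27.8% without. The interquartile range of their log2 fold changes went from 1.13 to 0.21, and that of all genes from 0.95 to 0.41. The other 6 were Dpm3 (-4.21), Gpaa1 (-0.69), Pigq (-0.55), Pigv (0.50), Pigx (0.45) and Pgap2 (0.32).

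**Figure D3:**
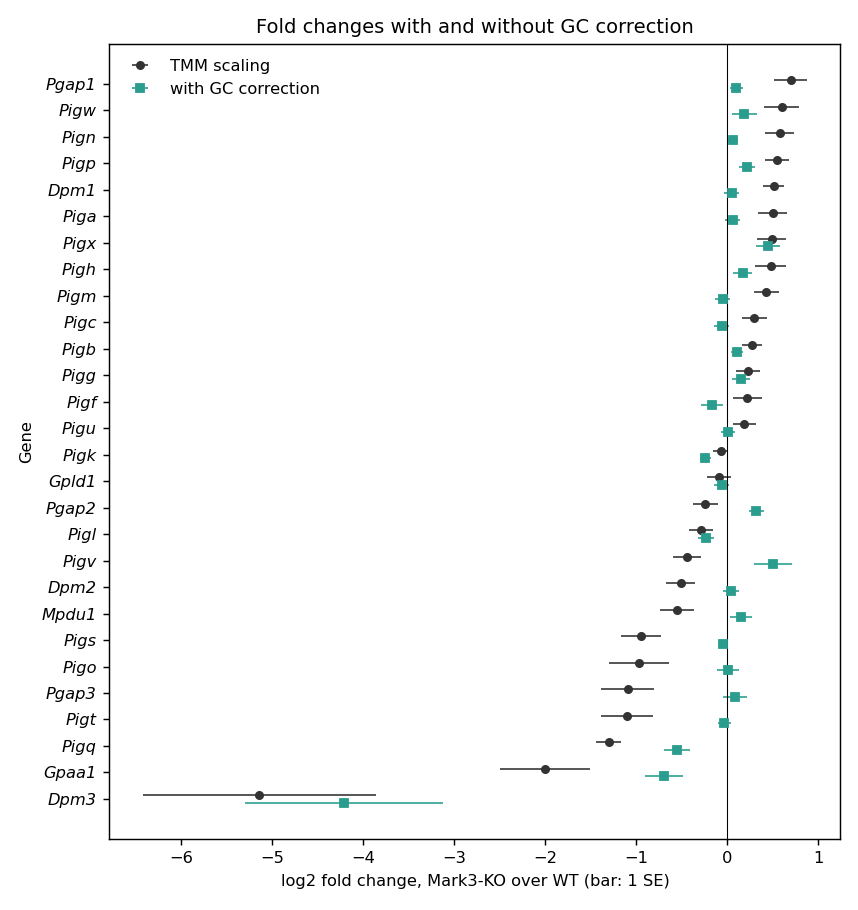
Log2 fold change of each of the 28 tested GPI anchor genes (rows), from the fit with TMM scaling (black circles) and from the fit with GC correction (green squares). Bars are 1 SE. With the correction 22 members lie within 0.25 of 0, and Dpm3 stays at -4.21.

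GPI anchor synthesis starts with the GPI-GlcNAc transferase, a complex of the catalytic subunit encoded by Piga with Pigc, Pigh, Pigp, Pigq and Pigy products. Pigy is not analysed here. Pigq (chr17:25926421-25944936, minus strand, GRCm38) encodes a membrane subunit that helps hold the complex together. A 100-base stretch of its coding sequence, read from the GENCODE M21 transcripts (chr17:25936828-25936927, minus strand), taken from 1 exon at the place closest in composition to all its transcripts, shows that composition with G and C in capitals:
Pigq: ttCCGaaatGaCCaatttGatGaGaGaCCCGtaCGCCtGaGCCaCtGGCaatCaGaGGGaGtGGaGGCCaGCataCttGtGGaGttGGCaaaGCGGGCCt

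Pigq stood at 61.2, 53.9 and 47.0 CPM in WT (3569, 2969 and 3151 counts), against 21.5, 24.4 and 19.8 CPM in Mark3-KO (1584, 1454 and 1218 counts). Every Mark3-KO library was below the lowest WT library, and that gap was wider than the range within either group. The mean went from 54.0 ± 7.12 to 21.9 ± 2.32 CPM (SD, n = 3 libraries each), to 40.5% of WT, for a log2 difference of -1.30 (SE 0.14, adjusted p 0.0418). With GC correction it was -0.55 (SE 0.14, adjusted p 0.105), so the call was lost. It was also lost without WT replicate 1 (adjusted p 0.118), WT replicate 2 (0.152), Mark3-KO replicate 2 (0.154) or Mark3-KO replicate 3 (0.148), where the log2 fold change lay between -1.39 and -1.21. The antisense gene Gm16278 shares 957 bases with Pigq exons, 15.8% of their length. It had 3.61 CPM in WT against 2.01 CPM in Mark3-KO (fitted log2 fold change -0.84, adjusted p 0.088). The library kit does not mark strand, so reads of the pair in the shared bases cannot be told apart.

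The other 4 measured transferase genes stood the other way round. Pigp, whose product is a small accessory subunit, had 17.0, 16.3 and 18.1 CPM in WT against 21.6, 26.0 and 27.5 CPM in Mark3-KO. Its log2 fold change was 0.55 (SE 0.13, adjusted p 0.0506), and 0.22 with GC correction. Piga on the X chromosome, the gene whose somatic loss in blood stem cells causes paroxysmal nocturnal haemoglobinuria, had 16.2, 16.6 and 21 CPM in WT against 21.5, 27.2 and 27.4 CPM in Mark3-KO. Its groups were separated by less than the range within WT, and its log2 fold change was 0.50 (adjusted p 0.0637), or 0.06 with GC correction. Pigh and Pigc had log2 fold changes of 0.48 (adjusted p 0.0742) and 0.30 (adjusted p 0.142). With GC correction Pigh was at 0.17 and Pigc at -0.06. Transcripts of these 4 genes have a GC content of 43.3 to 45.4%, and those of Pigq 55.1%.

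The next steps remove the acetyl group, through the deacetylase encoded by Pigl, and attach a fatty acid to the inositol ring, through the acyltransferase encoded by Pigw. Pigl had 7.08, 6.39 and 6.84 CPM in WT against 5.56, 5.57 and 5.43 CPM in Mark3-KO. The groups were apart but close. The fitted log2 fold change of -0.29 (SE 0.13, adjusted p 0.121) was -0.23 with GC correction. Its transcripts are at 49.9% GC, near the middle of the range, where the correction moved values little. Pigw had 5.25, 4.98 and 5.62 CPM against 6.05, 9.01 and 8.93 CPM, and Mark3-KO replicate 1 lay nearer to the WT libraries than to the other Mark3-KO libraries. Its log2 fold change was 0.60 (SE 0.19, adjusted p 0.062), or 0.19 with GC correction.

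Mannoses are added by the transferases that Pigm, Pigv, Pigb and Pigz encode, and Pigx encodes the partner that stabilises the Pigm enzyme. Pigx had 11.5, 11.2 and 15.2 CPM in WT against 16.9, 18 and 18.3 CPM in Mark3-KO. Its log2 fold change of 0.49 (SE 0.16, adjusted p 0.0607) was 0.45 with GC correction (adjusted p 0.113). Pigm, at 42.7% GC, had log2 fold changes of 0.43 and, with the correction, -0.05, so the values of the 2 partners came apart there. Pigv encodes the enzyme for the next mannose. It had 13.2, 11.8 and 10.3 CPM in WT against 8.33, 8.01 and 9.68 CPM in Mark3-KO, for a log2 difference of -0.44 (SE 0.15, adjusted p 0.0724), whereas with GC correction it was 0.50 (SE 0.21, adjusted p 0.206). Pigv lies above other genes of its GC content (56.2%), so its sign depends on the correction. Pigb was at 0.27 and 0.11 without and with the correction. Pigz, whose enzyme adds a further mannose in some tissues, had 6, 9 and 8 counts in WT and 4, 7 and 5 in Mark3-KO, too few to test.

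Ethanolamine phosphate is added to the mannoses by the transferases Pign, Pigo and Pigg, and Pigf encodes the partner of the last 2. Pign was the most counted of them, at 89.1, 98.4 and 121 CPM in WT against 130, 153 and 178 CPM in Mark3-KO. The lowest Mark3-KO library was close to the highest WT library. The log2 fold change was 0.58 (SE 0.16, adjusted p 0.0518), and 0.06 with GC correction. Pigo had 16.2, 13.0 and 8.79 CPM in WT against 9.09, 5.69 and 4.54 CPM in Mark3-KO. Here WT replicate 3 lay below Mark3-KO replicate 1, so the groups overlapped, and the log2 fold change of -0.97 (SE 0.33, adjusted p 0.0671) was 0.01 with the correction. Pigg and Pigf had log2 fold changes of 0.23 and 0.22, and with GC correction of 0.15 and -0.17.

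The GPI transamidase attaches the finished anchor to proteins. Pigk encodes its protease-like catalytic subunit, and Gpaa1, Pigs, Pigt and Pigu encode the other 4. These subunits work in 1 complex, yet their transcripts differ in composition: Pigk and Pigu at 47.3% and 47.2% GC, Pigs, Pigt and Gpaa1 at 56.3%, 57.4% and 59.3%. The 5 stretches below show this. Each is 100 bases of coding sequence within 1 exon, chosen for a GC content closest to that of the gene's transcripts, with G and C in capitals. They lie at chr3:152740136-152740235 (plus strand), chr2:155301240-155301339 (minus strand), chr11:78328975-78329074 (plus), chr2:164497866-164497965 (plus) and chr15:76331898-76331997 (plus) of GRCm38, and hold 47, 47, 56, 57 and 59% G and C:
Pigk: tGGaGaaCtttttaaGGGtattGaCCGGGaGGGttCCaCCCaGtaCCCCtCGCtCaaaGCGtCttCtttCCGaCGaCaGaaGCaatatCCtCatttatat
Pigu: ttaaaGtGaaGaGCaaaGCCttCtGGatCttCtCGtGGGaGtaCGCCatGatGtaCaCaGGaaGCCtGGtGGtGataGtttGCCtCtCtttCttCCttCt
Pigs: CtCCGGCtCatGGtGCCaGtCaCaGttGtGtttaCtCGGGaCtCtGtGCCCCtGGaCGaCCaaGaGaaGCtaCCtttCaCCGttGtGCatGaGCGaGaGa
Pigt: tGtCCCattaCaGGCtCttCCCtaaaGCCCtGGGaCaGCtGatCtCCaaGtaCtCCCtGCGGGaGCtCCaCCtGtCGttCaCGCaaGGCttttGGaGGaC
Gpaa1: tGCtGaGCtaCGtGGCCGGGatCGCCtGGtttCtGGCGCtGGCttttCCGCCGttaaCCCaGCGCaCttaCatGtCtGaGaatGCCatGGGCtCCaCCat

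Pigk had 135, 136 and 136 CPM in WT against 132, 127 and 129 CPM in Mark3-KO, from 24441 and 25235 counts in all. Its libraries lay close together, though lower in Mark3-KO without overlap, with means of 135 ± 0.558 and 129 ± 2.18 CPM (SD, n = 3). Its log2 fold change was -0.07 (SE 0.08, adjusted p 0.527), or 0.05 when libraries were scaled by their totals alone and -0.24 (SE 0.06, adjusted p 0.104) with GC correction. Pigu, which encodes a multi-pass membrane subunit, was also near 0. It had 25.7, 27.7 and 29.5 CPM against 29.9, 29.2 and 35.5 CPM, a log2 fold change of 0.19 (adjusted p 0.269), or 0.01 with GC correction.

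Without GC correction the GC-rich subunits stood apart from both. Gpaa1 (chr15:76331231-76334907) had 33.5, 23.3 and 11.6 CPM in WT against 9.04, 3.89 and 4.10 CPM in Mark3-KO. WT replicate 3 lay closer to Mark3-KO replicate 1 than to either other WT library. The log2 fold change was -2.0 (SE 0.49, adjusted p 0.0506), between -2.51 and -1.62 with 1 library left out, and -0.69 (SE 0.21, adjusted p 0.121) with GC correction. Pigs had 114, 91.1 and 72.1 CPM in WT against 60.2, 44.9 and 39.0 CPM in Mark3-KO. Pigt, whose product links the catalytic subunit to the complex, had 63.7, 46.8 and 34.4 CPM in WT against 29.8, 21.1 and 16.5 CPM in Mark3-KO. For both the Mark3-KO libraries were lower without overlap, at log2 fold changes of -0.95 (SE 0.22) and -1.10 (SE 0.29), each with an adjusted p of 0.0506. With GC correction they were -0.04 and -0.03.

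**Figure D4:**
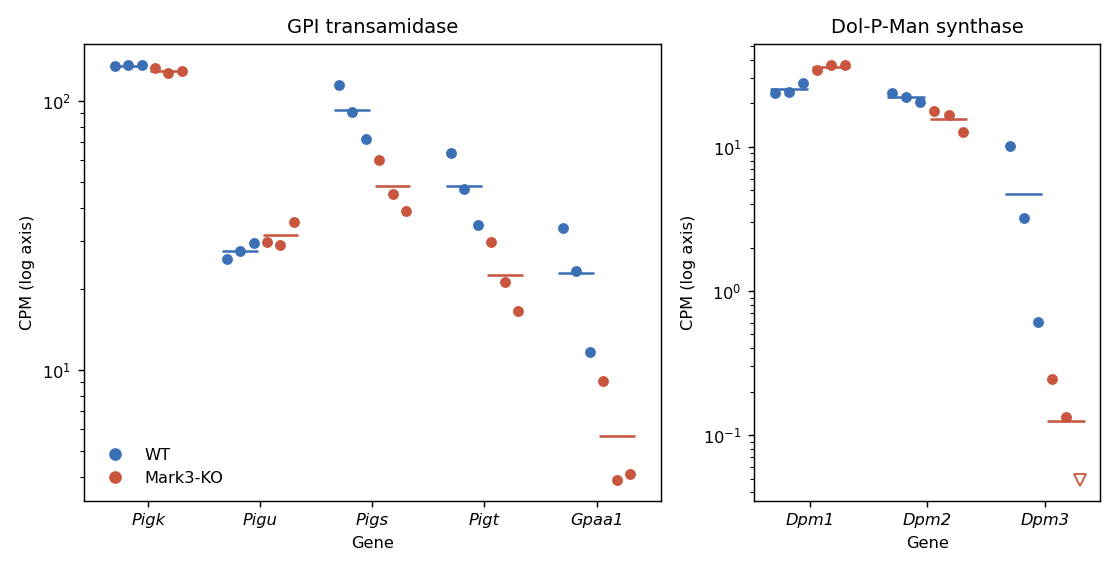
CPM on a log axis of the 5 GPI transamidase subunit genes (left) and the 3 dolichol phosphate mannose synthase subunit genes (right). Each point is 1 library, replicates 1 to 3 from left to right in WT (blue) and Mark3-KO (red), and lines are group means. The open triangle is the limit of 0.0488 CPM for the Mark3-KO library with 0 Dpm3 counts. Pigk lies at 127 to 136 CPM, and Gpaa1 spans 33.5 to 3.89 CPM.

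Mannose for the anchor, and for N-glycans and O-mannosylation, comes from dolichol phosphate mannose. Its synthase is made of the catalytic subunit Dpm1 and of the small membrane subunits Dpm2 and Dpm3, and Mpdu1 is needed for use of the lipid-linked sugar. The 3 subunit genes differ in composition, at 43.0%, 54.0% and 55.7% GC. Stretches of 100 coding bases chosen as above lie at chr2:168227403-168227502 (minus strand), chr2:32572298-32572397 (plus) and chr3:89266734-89266833 (plus). Those of Dpm2 and Dpm3 hold 59 and 60% G and C, since the short reading frames of 252 and 276 bases offer none closer:
Dpm1: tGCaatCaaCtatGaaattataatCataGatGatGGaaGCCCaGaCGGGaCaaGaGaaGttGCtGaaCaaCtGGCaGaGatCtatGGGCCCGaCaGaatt
Dpm2: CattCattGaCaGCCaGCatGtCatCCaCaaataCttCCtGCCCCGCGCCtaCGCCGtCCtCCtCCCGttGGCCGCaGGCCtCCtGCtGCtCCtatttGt
Dpm3: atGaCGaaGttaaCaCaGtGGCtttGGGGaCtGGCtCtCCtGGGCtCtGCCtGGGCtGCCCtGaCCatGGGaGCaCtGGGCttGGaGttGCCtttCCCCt

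Dpm1 had 23.8, 24.1 and 27.9 CPM in WT against 33.9, 37.1 and 36.7 CPM in Mark3-KO. The groups were apart, and the log2 fold change was 0.51 (SE 0.12, adjusted p 0.0506), or 0.05 with GC correction. Of its exon bases 11.9% are shared with Gm20716, a gene on the same strand at 14.5 ± 12.9 CPM in WT against 50.9 ± 39.4 CPM in Mark3-KO, whose log2 fold change was 1.81 (adjusted p 0.376). Dpm2 had 23.8, 22.3 and 20.4 CPM against 17.6, 16.5 and 12.7 CPM, for a log2 difference of -0.51 (SE 0.16, adjusted p 0.0584) that was 0.04 with the correction.

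Dpm3 (chr3:89259358-89267079), whose product tethers the catalytic subunit to the membrane, had the widest range of the family. Its WT libraries held 595, 176 and 41 counts (10.2, 3.20 and 0.611 CPM) and its Mark3-KO libraries 18, 8 and 0 counts (0.244, 0.134 and 0 CPM, the last allowing up to 0.0488 CPM at a limit of 3 counts). The 3 WT libraries differed among themselves more than WT replicate 3 differed from Mark3-KO replicate 1. The group means were 4.67 ± 4.96 and 0.126 ± 0.122 CPM (SD, n = 3), and WT replicate 1 made up most of the WT mean. The log2 fold change was -5.14 (SE 1.28, adjusted p 0.0506), from -3.85 without WT replicate 1 to -6.09 without Mark3-KO replicate 1. With GC correction it was -4.21 (SE 1.09, adjusted p 0.109), so this member lay well below genes of its transcript GC content (55.7%) in both fits. Its counts fell in the same order of libraries, within and across the groups, as the level of GC-rich genes given above. How much of the Dpm3 difference goes with that order was not tested. The call depended on the setting: DESeq2's Wald test gave an adjusted p of 0.00671, limma-voom 0.0876. Mpdu1 had log2 fold changes of -0.55 (adjusted p 0.0676) and, with GC correction, 0.15.

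After attachment, Pgap1 encodes the deacylase that removes the fatty acid from inositol, Pgap3 the lipase and Pgap2 the factor that exchange a lipid chain in the Golgi, and Gpld1 a secreted phospholipase D that can cut GPI anchors. Pgap1 has the lowest GC content of the family, 40.0%, and the highest fitted value. It had 19.3, 21.8 and 26.9 CPM in WT against 32.1, 34.7 and 43.4 CPM in Mark3-KO, with no overlap, for a log2 difference of 0.70 (SE 0.18, adjusted p 0.0506) and, with GC correction, 0.10. Pgap3, at 58.3% GC, had 4.85, 3.92 and 2.77 CPM against 2.39, 1.48 and 1.55 CPM, also with no overlap. Its log2 fold change of -1.09 (SE 0.29, adjusted p 0.0507) was 0.09 with the correction. Pgap2 was at -0.24 (adjusted p 0.221) and, with GC correction, at 0.32 (adjusted p 0.104). Gpld1 was at -0.09, or 0.02 when libraries were scaled by their totals alone. It shares 45.5% of its exon length with Mrs2 on the opposite strand, so part of its reads may be from that gene. Of the 29 members, 16 share exon bases with another gene, and 8 share at least 10% of their exon length with 1 such gene, among them Pigf with Rhoq (31.6%), Pigh with Plekhh1 (27.3%), Pigb with Ccpg1 (20.8%) and Pigp with Ttc3 (16.4%).

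Levels were compared between genes per length, as counts per exon kilobase scaled to 1000000 per library. In WT, Pigs was highest at 124 ± 20.2, Pigk followed at 48.2 ± 3.44 and Pigt at 41.7 ± 10.1 (SD, n = 3). The libraries of Pigk and Pigt overlap, as do those of Pigt and the next member Dpm2 (37.8 ± 0.396), so their order is not settled, while all 3 Pigs libraries lay above every library of the other members. Pigz was lowest at 0.171 ± 0.0433, followed by Pgap3 at 3.95 ± 0.821 and Pgap1 at 4.65 ± 1.12, whose libraries overlap. In Mark3-KO Pigs was again highest at 74.1 ± 14 and Pigk next at 52.9 ± 1.28, overlapping with Pigp at 49.1 ± 7.62. Pigq went from rank 5 of 29 to rank 17, Gpaa1 from rank 9 to rank 24 and Dpm3 from rank 14 to rank 28. The WT mean of Dpm3, 16.4, rests on libraries at 35.1, 11.6 and 2.41, and without WT replicate 1 it was 7.01, at rank 23. Without that library Gpaa1 was at rank 12 in WT and Pigq at rank 6. Within the transamidase, Gpaa1 was above Pigu in WT (25.6 ± 10.9 and 10.0 ± 1.37) and below it in Mark3-KO (7.39 ± 3.48 and 13.2 ± 1.71). Levels per length have no GC correction, so these ranks and orders hold the differences along GC content described above.

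**Figure D5:**
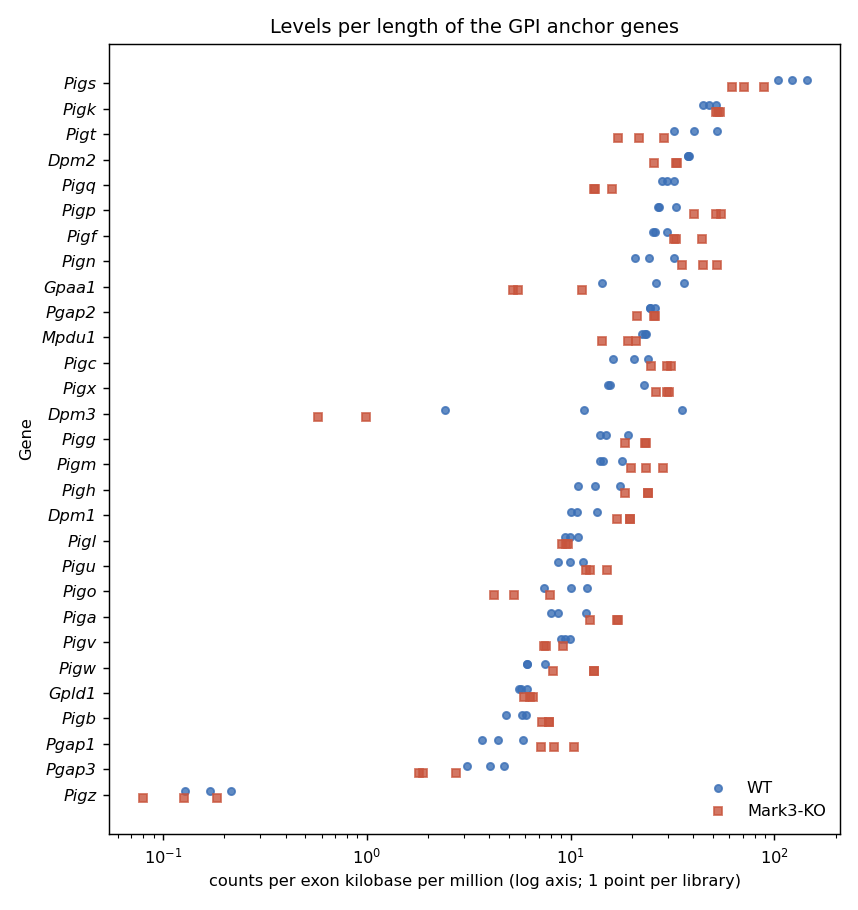
Counts per exon kilobase, scaled to a common library total (log axis), of the 29 GPI anchor genes, 1 point per library, WT as blue circles and Mark3-KO as red squares, ordered by the WT mean. Pigs is highest in both groups (124 and 74.1), Pigz is lowest, and the Mark3-KO library with 0 Dpm3 counts is not drawn.

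By step, the median log2 fold change was 0.48 for the 5 measured GlcNAc transferase genes, 0.35 for 4 mannosyltransferase genes, 0.23 for 4 ethanolamine phosphate genes, -0.17 for 4 remodelling genes, -0.53 for 4 dolichol phosphate mannose genes and -0.95 for 5 transamidase genes. With GC correction these medians were 0.06, 0.28, 0.04, 0.09, 0.04 and -0.04. The 2 genes for de-N-acetylation and inositol acylation, Pigl and Pigw, had a median of 0.15, or -0.02 with GC correction. The spread between steps was thus narrower on the corrected scale, and steps were not tested against each other.

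Promoters were read from the RefSeq table of GRCm38.p6, as 300 bases spanning the start of each gene, and 25 of the 29 members matched by symbol. Their GC content ran from 48.0 to 73.0% (median 60.5%), beside a median of 52.8% over 27025 promoters. Promoter GC content did not show the relation of the transcripts: over 24 tested members its r with the log2 fold change was 0.55 and rho 0.59, and over 11976 tested genes -0.13 and -0.12. The ETS-type motif CCGGAAG, searched on both strands, was in 9 of the 25 (36.0%), beside 9.93% of all 27025 promoters and 18.2% of the 11973 of tested genes. Of the 9, 5 belong to members fitted above 0 and 4 to members fitted below. Windows around the match, in capitals, are shown for 1 member of each kind, Pigt (chr2:164497456-164497494, plus strand) and Pigh (chr12:79089677-79089715, minus strand, where the match reads as its reverse complement CTTCCGG):
Pigt: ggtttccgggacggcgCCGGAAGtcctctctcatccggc
Pigh: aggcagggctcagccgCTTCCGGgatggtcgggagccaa
The motif was thus in promoters of members fitted in both directions. The SP/KLF-type box GGGCGG was in 15 (60.0%, beside 38.2% of all and 65.2% of tested genes), the CRE-type site TGACG in 11 (44.0%, beside 23.0% and 33.4%) and TATAAA in 2 (8.0%, beside 15.7% and 9.31%). GCATGCG was in 2, AAGATGG in 3 and CACGTG in 3. A match of letters is not evidence of binding.

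Genes that act on GPI anchors under other names, or carry anchored proteins out of the endoplasmic reticulum, are 14, all tested. By edgeR 0 passed, 7 had an unadjusted p under 0.05 (5 lower, 2 higher), DESeq2 called 5 lower and 2 higher, and the median log2 fold change was -0.27, or 0.01 with GC correction. Of all genes, 45.7% had such a p, and DESeq2 called 21.8% lower and 14.5% higher. The 4 with the smallest p were Tmed9, Tmem8, Pigyl and Tmed5. Tmed9, a cargo receptor of the p24 family, had 193, 159 and 128 CPM in WT against 113, 84.7 and 74.2 CPM in Mark3-KO. Its log2 fold change was -0.82 (SE 0.21, adjusted p 0.0506), and -0.66 (adjusted p 0.104) with the correction. Tmed5, of the same family but at 40.7% GC, was at 0.59 and 0.01, Tmem8 at -0.80 and 0.05, and Pigyl at -1.69 and -0.44.

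Of 54 genes for GPI-anchored proteins, the cargo of the pathway, 51 were tested and 0 passed by edgeR. Of them 26 had an unadjusted p under 0.05 (18 lower, 8 higher), DESeq2 called 16 lower and 6 higher, and the median log2 fold change was -0.15, or -0.03 with GC correction. The shares over all genes are the 45.7%, 21.8% and 14.5% given above. The 4 with the smallest p all lay lower without overlap. Rgma, a co-receptor for bone morphogenetic proteins, had 26.1, 18.4 and 11.6 CPM in WT against 4.19, 2.38 and 5.12 CPM in Mark3-KO (fitted log2 fold change -2.26, SE 0.39, adjusted p 0.0506, -0.86 with GC correction). Gpc1, a heparan sulfate proteoglycan, had 729, 500.0 and 287 CPM against 199, 124 and 100 CPM, at -1.84 and, corrected, -0.64. Gfra2, a receptor for neurturin, was at -0.85 and -0.43, and Rtn4r, the Nogo receptor, at -2.81 and -1.09. Alpl, named for its role in bone and not by the smallest p, had 35.5, 36.0 and 24.2 CPM in WT against 21.8, 23.0 and 17.4 CPM in Mark3-KO. Its libraries did not overlap, and its log2 fold change was -0.62 (SE 0.20, adjusted p 0.0598), whereas with GC correction it was 0.33 (adjusted p 0.215).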

How the data were processed

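RNA of 6 osteoblast libraries (3 WT, 3 Mark3-KO; grouped by the titles in the labels) was profiled with a TruSeq kit, version 2, per the labels' protocols. The authors deposited whole-number counts per Ensembl gene, untransformed. The submitters' processing notes name the build GRCm38 and, as tools, HISAT2 2.0.5, StringTie, FastQC and DESeq2. Settings, and how reads of shared exons were counted, are not given in the sources used here. Of the gene IDs, 51719 matched GENCODE M21, which gave symbols, exon lengths and transcript GC content, and 193 did not.

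Mark3-KO was compared with WT over all genes kept by filterByExpr (19017) with edgeR 4.0.16 under R 4.3.3: TMM scaling, the quasi-likelihood test and Benjamini-Hochberg adjustment over all tested genes, threshold 0.05. CPM are on TMM-scaled library sizes, and log2 fold changes are Mark3-KO over WT. For the GC correction, a spline of transcript GC content (natural, 6 degrees of freedom) was fitted to each library and used as an offset. DESeq2 1.42.0, limma-voom (limma 3.58.1), other scalings and filters, a replicate block and leaving out each library were alternatives. The procedures were run on simulated counts with the same added spread for every gene. That checks the code, and not how well the fits suit these libraries. A count of 0 allows up to 3 counts, for counting error only.

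Members and gene lists were chosen with earlier results of these data known. Described in full were members past the threshold, the highest and the lowest fitted member of each step, the 3 highest and 3 lowest per length, and of each related list the 4 genes with the smallest p.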

Additional observations from a re-analysis of the deposited data

How the results depend on the processing

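The number of GPI anchor genes past the threshold depended on the setting. Lower and higher, it was 1 and 0 (Pigq) with edgeR, DESeq2 size factors, limma-voom and no filter on low counts. It was also 1 and 0 with GC correction and a replicate block, but there the gene was Dpm3 (adjusted p 0.0288), and Pigq did not pass (-0.57, adjusted p 0.066). It was 6 and 6 with library size alone, 10 and 9 with DESeq2's Wald test, 6 and 8 with at least 1 CPM in 3 libraries, and 0 and 0 with GC correction. With 1 library left out it ranged from 0 to 9 lower and from 0 to 7 higher: 8 and 7 without WT replicate 3, 9 and 7 without Mark3-KO replicate 1, and 0 and 0 without each of the other 4 in turn. Over all genes, 32 lower and 9 higher became 2320 and 2190 with library size alone, 4138 and 2756 with the Wald test, 3002 and 2264 with the 1 CPM filter, 57 and 20 with GC correction, and 662 and 331 with GC correction and replicate block. Called lower were 20 with limma-voom and 52 with no filter. With 1 library left out the range was 0 to 3932 lower and 0 to 2528 higher. Over the related lists, 0 and 0 became 13 and 13 with library size alone, 27 and 16 with the Wald test, 20 and 13 with the 1 CPM filter, 5 and 2 with GC correction and replicate block, and 0 to 27 lower and 0 to 17 higher with 1 library left out. The members' median log2 fold change of 0.06 was 0.17 with library size alone, which moved the median of all genes from 0.02 to 0.13, 0.22 with the 1 CPM filter, which leaves out Dpm3, and -0.08 with no filter, which adds Pigz. With 1 library left out it ranged from 0.02 to 0.08. By edgeR's test, members such as Dpm1, Gpaa1 and Pigt had an adjusted p of 0.0506, so a small shift can change their calls. Causes of the moves beyond what is named here were not tested.

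Directions turned with GC correction for 9 members. The log2 fold changes became -0.06 for Pigc, -0.05 for Pigm, 0.50 for Pigv (0.47 with replicate block), -0.17 for Pigf, 0.01 for Pigo (0.00 with block), 0.32 for Pgap2, 0.09 for Pgap3 (0.08 with block), 0.04 for Dpm2 and 0.15 for Mpdu1. Directions turned for 36 of the 98 tested genes of the related lists. Among those named by the smallest p they became 0.05 for Tmem8 (0.03 with block), -0.01 for Stt3a, 0.12 for Ddost (0.13 with block) and 0.16 for Dolk. With library size alone Pigk was at 0.05 and Gpld1 at 0.02. The correction takes out what follows GC content by its construction.

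The labels give both groups replicate numbers 1 to 3. Same-numbered libraries deviated from their group means with correlations of 0.33, -0.03 and 0.29. Libraries numbered 1 and 3 correlated best with their own number. WT replicate 2 correlated best with Mark3-KO replicate 1 (0.06), and Mark3-KO replicate 2 with WT replicate 3 (0.09). In both groups the level of GC-rich genes given above also fell from replicate 1 to 3. These values do not settle whether the numbers pair the samples, and the main fit used no pairing. A replicate block gave 10 members lower and 11 higher, 4704 genes lower and 3783 higher over all genes, and 34 and 19 over the related lists. Pigq passed with the block (log2 fold change -1.30, adjusted p 0.00252).

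Counts were fewest for Pigz, with 23 in WT and 16 in Mark3-KO in all. Dpm3 had 26 in Mark3-KO, beside 812 in WT, and the total counts of the libraries overlap between the groups.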

Other observations

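Dolichol phosphate mannose and the membrane lipid dolichol also serve N-glycosylation, the attachment of a preformed sugar tree to proteins in the endoplasmic reticulum. Of 23 genes for building and transferring that tree, all tested, 0 passed by edgeR, 15 had an unadjusted p under 0.05 (8 higher, 7 lower), DESeq2 called 5 higher and 4 lower, and the median log2 fold change was 0.10, or -0.01 with GC correction. Of all genes 45.7% had such a p, and DESeq2 called 14.5% higher and 21.8% lower. The 4 with the smallest p were Ddost, Alg6, Stt3a and Magt1. Ddost, a subunit of oligosaccharyltransferase, had 300, 288 and 258 CPM in WT against 216, 168 and 144 CPM in Mark3-KO, for a log2 difference of -0.68 (SE 0.16, adjusted p 0.0506). Stt3a, a catalytic subunit of the same enzyme, had 437, 485 and 598 CPM in WT against 653, 750 and 797 CPM in Mark3-KO, for a log2 difference of 0.53 (SE 0.15, adjusted p 0.0511). Both were without overlap between the groups and in opposite directions. Their transcripts have a GC content of 55.7% and 41.1%, and with GC correction they were at 0.12 and -0.01. Alg6, a glucosyltransferase, was at 0.56 and, corrected, 0.05, and Magt1, an accessory subunit, at 0.60 and 0.07.

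Of 10 genes for dolichol synthesis and for other users of dolichol phosphate mannose, 0 passed by edgeR, 6 had an unadjusted p under 0.05 (3 in each direction), DESeq2 called 3 higher and 2 lower, and the median log2 fold change was -0.06, or 0.00 with GC correction. The same shares of all genes stand beside these counts. Dolpp1, a phosphatase that recycles the dolichol carrier, had 16, 13.7 and 7.69 CPM in WT against 5.82, 4.73 and 5.37 CPM in Mark3-KO (fitted log2 fold change -1.23, SE 0.28, adjusted p 0.0506, -0.30 with GC correction). Nus1, a subunit of the prenyltransferase that makes the dolichol chain, was at 0.59 and, corrected, 0.11. Dpy19l4 was at 0.69 and 0.11, and the dolichol kinase gene Dolk at -0.49 and 0.16.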
